A study of Homo sapiens with 24 samples.

Results

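The splicing factor and hnRNP genes described here were the 62 genes, of 12165 genes measured, whose single gene symbol begins with SNRP, SF3A, SF3B, SRSF, HNRNP or LSM. They comprised 12 SNRP, 3 SF3A, 5 SF3B, 11 SRSF, 21 HNRNP and 10 LSM genes. They were chosen by name, and each was read with its brightest probe set, by the mean of the 24 arrays. No filter on low values was applied, so all 62 were tested, HNRNPA1P33 and HNRNPA3P1 being annotated as pseudogenes. A further 10 probe sets that list several symbols, LSM6 among them, were not analysed here. RNA from 4 human acute myeloid leukemia (AML) cell lines was measured on 24 one-colour Affymetrix arrays. Cells of each line were given 4 µM R406 or its solvent dimethyl sulfoxide (DMSO) for 24 h, which makes 8 groups of 3 arrays. R406, to which the prodrug fostamatinib is converted, inhibits the tyrosine kinase SYK and several other kinases. The lines were MOLM-14, which has the MLL-AF9 fusion together with a FLT3 internal tandem duplication, the monocytic U937, the promyelocytic HL-60 and the myeloblastic KG-1. Each stands for 1 leukemia. Whether triplicate arrays are separate cultures is not given in the labels, and the spread that the p-values rest on may be technical. The dose is as the treatment protocol gives it, since the series design text states the same number in mM.

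Introns are removed from pre-mRNA by the spliceosome, which is built from small nuclear ribonucleoproteins (snRNPs), each an RNA wrapped in a ring of Sm or LSm proteins with further specific proteins. SF3A and SF3B proteins belong to the U2 snRNP and help it to hold the branch point of the intron. SR proteins, encoded by SRSF genes, bind exons and mostly promote use of nearby splice sites, while hnRNPs coat nascent transcripts and often oppose them. Mutations in SF3B1 and SRSF2 recur in myeloid malignancies.

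Intensities spanned 3.41 to 12686 and the array medians 19.1 to 21.4, and precision is limited by the number of arrays. Within groups the arrays correlated at 0.9937 to 0.9983 over all probe sets. KG-1 R406 replicate 2 stood apart from the other KG-1 R406 arrays, with correlations of 0.9937 and 0.9940 against 0.9976 between those. That array lay furthest from the DMSO mean for 50 of the 62 genes. Of the line markers, CD34 averaged 613 in KG-1 DMSO cells, MPO 6416 in HL-60 DMSO cells and FLT3 914 in MOLM-14 DMSO cells, each being highest there. Other markers listed for these lines were not highest there. ELANE and AZU1, listed for HL-60, averaged 2642 and 160 in HL-60 DMSO cells and 3034 and 792 in MOLM-14 DMSO cells. MEIS1, listed for MOLM-14, averaged 295 in MOLM-14 DMSO cells and 591 in KG-1 DMSO cells. The monocyte marker CD14 was near the bottom of the scale in MOLM-14 and U937 DMSO cells, at 7.20 and 7.40, and averaged 279 in HL-60 DMSO cells. Erythroid, lymphoid, fibroblast and epithelial markers (HBG1, HBA1, CD3E, CD3D, CD79A, COL1A1, COL1A2, EPCAM and KRT8) did not exceed 44.01 on any array. Of the listed myeloid and blood markers, PTPRC averaged 444 or more in the DMSO groups, but SPI1 only 15.1 in KG-1 to 35.4 in HL-60. The monocyte marker CSF1R averaged 17.1 in MOLM-14 and 13.4 in U937 DMSO cells. A reading below 44.01 therefore does not show that a gene is absent. The log2 ratio of the 3' to the 5' control probe set of ACTB, a measure of RNA quality, differed between R406 and DMSO arrays by 0.34 in MOLM-14, -0.039 in U937, -0.13 in HL-60 and 0.12 in KG-1. Its exact permutation p-values were 0.1, 0.6, 0.1 and 0.1, where 0.1 is the smallest that 3 against 3 arrays allow. On KG-1 R406 replicate 2 this ratio was 0.97, against 0.79 on both other KG-1 R406 arrays. The same ratio for GAPDH differed by 0.078 in MOLM-14, -0.0058 in U937, -0.011 in HL-60 and 0.10 in KG-1. The exact permutation p-values for GAPDH were 0.1 in MOLM-14 and KG-1, and 0.9 or more in HL-60 and U937.

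In MOLM-14 and KG-1 cells most of the splicing factor and hnRNP genes were lower with R406 than with DMSO, and in U937 and HL-60 cells few were called. R406 lowered 45 of the 62 genes in MOLM-14 and raised 5, with 12 not called, at a limma adjusted p under 0.05 over all genes tested. Among all 12165 genes, 25% were called lower and 31.1% higher in that line, or 56.1% in either direction. In KG-1, 39 genes fell and 10 rose, against 20.9% called lower, 23.5% called higher and 44.3% called in either direction among all genes. In U937, 5 genes fell, with 5.43% of all genes called lower, and none was called higher, where 6.1% of all genes were. At an unadjusted p under 0.05 limma gave 10 lower and 1 higher in U937. The share of all genes at an unadjusted p is not given here. Such counts, here and below, therefore cannot be read as above or below it. In HL-60, 5 genes fell and 3 rose, against 7.98% and 7.2% of all genes, so the shares called lower in these 2 lines were near those of all genes. Here and below an effect is the R406 minus DMSO difference of log2(intensity + 1). Its median over the 62 genes was -0.50 in MOLM-14, -0.049 in U937, 0.0037 in HL-60 and -0.36 in KG-1. Over all genes the medians of the same difference were 0.068, 0.0029, -0.0029 and 0.020 in the same lines. Effects below 0, called or not, were found for 51 of the 62 genes in MOLM-14, 47 in U937, 29 in HL-60 and 47 in KG-1. Among all 12165 genes there were 5044, 5982, 6158 and 5641 in the same lines. Most of the 62 genes thus lay below 0 in U937 too, though few were called. Falls of 1 or more on the log2 scale were called for 18 of the 62 genes in MOLM-14, where 9.06% of all genes had one, and for 5 in KG-1, where 4.39% did. In MOLM-14 all 3 R406 arrays lay below all 3 DMSO arrays for 46 genes and above them for 7, against 26.1% and 31.6% of all genes. In KG-1 these counts were 42 and 10, against 23.2% and 26.5% of all genes. In U937 they were 19 and 4, against 15.9% and 18.2% of all genes, and in HL-60 13 and 9, against 16.9% and 15.9%. The median log2 intensity of the 62 genes was 9.25 to 9.41 on MOLM-14 R406 arrays and 10.03 to 10.11 on MOLM-14 DMSO arrays. On KG-1 R406 arrays it was 9.51 to 9.79 and on KG-1 DMSO arrays 10.28 to 10.33, so the groups did not overlap in either line. Without KG-1 R406 replicate 2, 38 genes were called lower and 9 higher in KG-1. The higher count of 10 in KG-1 was 6 after centring on array medians and 5 in a fit of the KG-1 arrays alone, and that of 5 in MOLM-14 was 9 after repeated quantile normalization. When only probe sets specific to 1 gene were used, 39 of the 62 genes remained, of which 23 fell and 3 rose in MOLM-14 and 20 fell and 4 rose in KG-1. The part of the 3' to 5' ratio, which was higher with R406 in MOLM-14 and KG-1, in these counts was not tested. In bulk RNA from a culture, fewer cells of a kind and less RNA per cell cannot be told apart. The U937 count of 5 was 2 after repeated quantile normalization and 1 without U937 DMSO replicate 1 or U937 R406 replicate 1, and the HL-60 count of 3 higher genes was 0 without HL-60 R406 replicate 1.

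**Figure D1:**
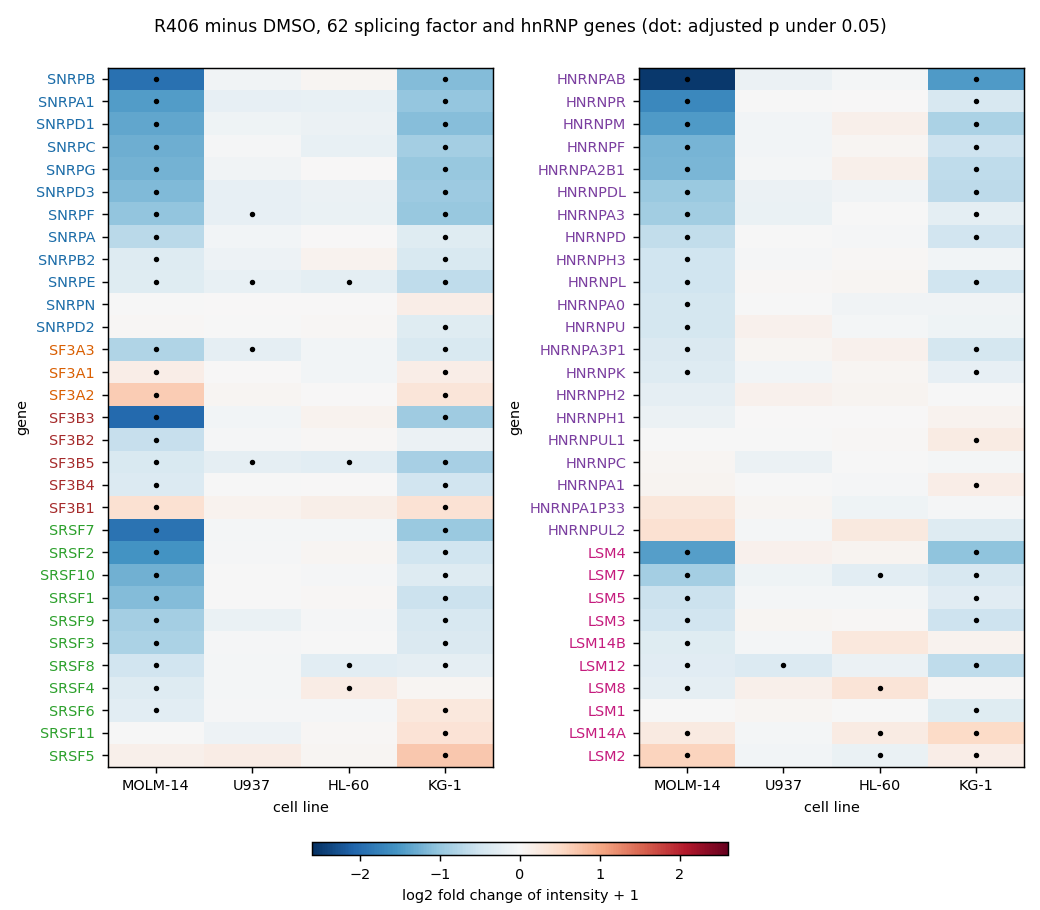
Colour shows R406 minus DMSO on the log2(intensity + 1) scale for the 62 genes (rows, coloured by subfamily and ordered by the MOLM-14 value within it) in the 4 lines (columns), and a dot marks a limma adjusted p under 0.05. Blue fills most of the MOLM-14 and KG-1 columns, from -2.50 for HNRNPAB in MOLM-14, while the U937 and HL-60 columns are near white.

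MYC, a transcription factor whose targets include splicing genes, was examined as well, being no splicing gene itself. Its intensity averaged 382 ± 16.03 in MOLM-14 R406 cells and 3993 ± 135 in MOLM-14 DMSO cells (SD, n = 3 each), a difference of -3.38 ± 0.091 on the log2 scale (SE, limma adjusted p = 2.94e-18). The difference was -2.11 in KG-1 (adjusted p = 3.43e-14), -0.80 in U937 (adjusted p = 4.54e-06) and -0.62 in HL-60 (adjusted p = 3.97e-05), so that MYC was lowered in all 4 lines and furthest in MOLM-14 and KG-1. Its part in the changes of the splicing genes was not tested. MYC with its partner MAX binds the E-box CACGTG, and the promoters of these genes, taken as 250 bases before to 50 after the start in RefSeq on GRCh38.p14, were searched for it. The motif reads the same on both strands. Promoters were in the table for 54 of the 62 genes, and 8 held it, or 14.8%, against 11.9% of the 9710 measured genes with a promoter and 7.26% of all 35116 promoters. The 8 were SF3B1, HNRNPA3, HNRNPD, HNRNPDL, HNRNPH2, HNRNPH3, HNRNPM and HNRNPUL1. Of the 37 genes lower in both MOLM-14 and KG-1, 33 had a promoter in the table and 4 held the motif, or 12.1%. A match is a description of letters, and binding was not measured. The promoters of HNRNPM, HNRNPDL and SF3B1 are shown because their genes moved in different directions: HNRNPM and HNRNPDL fell in MOLM-14 and KG-1, and SF3B1 rose in both. Each reads 5′ to 3′ on the gene's strand, with the motif in capitals, and the motif begins at position -42 relative to the start in HNRNPM, -156 in HNRNPDL and -108 in SF3B1. HNRNPM lies at chr19:8444725-8445024 on the plus strand, HNRNPDL at chr4:82430176-82430475 on the minus strand and SF3B1 at chr2:197434979-197435278 on the minus strand.
HNRNPM: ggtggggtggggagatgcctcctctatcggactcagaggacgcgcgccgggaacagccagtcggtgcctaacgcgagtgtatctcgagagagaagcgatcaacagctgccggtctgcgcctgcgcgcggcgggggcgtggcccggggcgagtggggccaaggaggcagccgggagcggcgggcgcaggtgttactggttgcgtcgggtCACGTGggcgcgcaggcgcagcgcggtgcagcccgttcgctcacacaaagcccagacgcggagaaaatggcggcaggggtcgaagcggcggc
HNRNPDL: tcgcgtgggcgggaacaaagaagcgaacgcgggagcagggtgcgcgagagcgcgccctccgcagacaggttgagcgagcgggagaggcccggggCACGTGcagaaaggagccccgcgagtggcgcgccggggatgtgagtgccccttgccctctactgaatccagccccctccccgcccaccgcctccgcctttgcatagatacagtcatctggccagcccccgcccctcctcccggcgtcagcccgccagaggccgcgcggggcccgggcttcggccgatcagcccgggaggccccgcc
SF3B1: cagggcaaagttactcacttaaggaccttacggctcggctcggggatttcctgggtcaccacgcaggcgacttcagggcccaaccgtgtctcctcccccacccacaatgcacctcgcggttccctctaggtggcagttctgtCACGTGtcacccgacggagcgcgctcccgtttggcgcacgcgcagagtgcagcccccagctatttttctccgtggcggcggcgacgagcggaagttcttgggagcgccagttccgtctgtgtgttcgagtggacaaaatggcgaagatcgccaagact

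SNRP genes, which encode the Sm ring and proteins specific to the U1 and U2 snRNPs, were the subfamily with the lowest median effect in both MOLM-14 and KG-1. R406 lowered 10 of 12 in MOLM-14, with a median of -1.08 on the log2 scale, and 11 of 12 in KG-1, with a median of -0.91. None was called higher in any line, and at an unadjusted p under 0.05 limma also gave no higher SNRP gene. In U937, 2 fell and in HL-60, 1 fell. Of all genes, 25% were called lower and 31.1% higher in MOLM-14, and 20.9% and 23.5% in KG-1. In U937 these shares were 5.43% and 6.1%, and in HL-60 7.98% and 7.2%. Of the 7 genes of the Sm ring, which encircles U1, U2, U4 and U5 RNA, 6 fell in MOLM-14 and all 7 in KG-1, with medians of -1.14 and -0.98.

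SNRPB, which encodes SmB, had intensities of 619.8, 514 and 598 in MOLM-14 R406 cells and 2260.0, 2175 and 2202 in MOLM-14 DMSO cells, a log2 fold change of -1.94 ± 0.10 (SE, limma adjusted p = 1.29e-13). All R406 arrays were far below the DMSO arrays. In KG-1 R406 cells SNRPB read 972, 684 and 985, and in KG-1 DMSO cells 1916, 1883 and 1890.5 (-1.13 ± 0.10, adjusted p = 2.85e-09). The groups did not overlap, and the second R406 array was the lowest. In U937 it read 3418, 3627 and 3576 with R406 and 4029, 3462 and 3865 with DMSO, and in HL-60 1678, 1763 and 1752 with R406 and 1636, 1703 and 1675 with DMSO, with overlapping arrays in both lines. SNRPD1 read 536, 502 and 564 in MOLM-14 R406 cells and 1337, 1357 and 1419 in MOLM-14 DMSO cells (-1.36 ± 0.10, adjusted p = 2.92e-11), and its effect in KG-1 was -1.11 ± 0.10. SNRPG read 1938, 1637 and 1862 in MOLM-14 R406 cells and 4073, 4377 and 4212 in MOLM-14 DMSO cells (-1.22 ± 0.083, adjusted p = 1.56e-11), with -0.98 ± 0.083 in KG-1. Neither gene's groups overlapped in these lines. SNRPF read 793, 818 and 919 in KG-1 R406 cells and 1673, 1675 and 1625 in KG-1 DMSO cells (-0.98 ± 0.067, adjusted p = 4.54e-11), and fell in MOLM-14 (-1.03 ± 0.067) and U937 (-0.21 ± 0.067, adjusted p = 0.0445) as well. SNRPD3, given with SNRPD2 to complete the ring, fell by 1.14 in MOLM-14 and by 0.93 in KG-1 on the log2 scale.

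SNRPE was called lower in all 4 lines. It has a single probe set, of a type that can bind related transcripts, so no specific probe set could be compared. It read 2973, 2821 and 2789 in MOLM-14 R406 cells and 3717, 3395 and 3556 in MOLM-14 DMSO cells (-0.31 ± 0.061, adjusted p = 1.22e-04). In KG-1 it read 1667, 1559 and 1635 with R406 and 2412, 2773 and 2560.3 with DMSO (-0.67 ± 0.061, adjusted p = 4.15e-09). In U937 it read 2932, 2949 and 3004 with R406 and 3586, 3259 and 3316 with DMSO (-0.19 ± 0.061, adjusted p = 0.043). The arrays did not overlap in any line, and HL-60 read 2080.5, 2060.3 and 2104 with R406 and 2449, 2477 and 2472 with DMSO (-0.24 ± 0.061, adjusted p = 0.00732). The fall of SNRPE was larger in KG-1 than in MOLM-14, by 0.36 ± 0.086 for MOLM-14 minus KG-1 (adjusted p = 0.00251). SNRPD2 was the exception in the ring. It read 4975, 5104 and 4985 in MOLM-14 R406 cells and 4786, 4896 and 5159 in MOLM-14 DMSO cells (0.022 ± 0.054, adjusted p = 0.758), with overlapping arrays. In KG-1 it fell, at 4160.2, 4080.1 and 4167 with R406 and 5362, 5073 and 4904 with DMSO (-0.30 ± 0.054, adjusted p = 5.17e-05). Without KG-1 R406 replicate 2 the KG-1 effects of the 7 ring genes ran from -0.96 to -0.30 on the log2 scale, and from -1.13 to -0.30 with it. The U937 calls of SNRPE and SNRPF were lost without any 1 of 6 and of 5 U937 arrays, with effects of -0.22 to -0.15 and -0.25 to -0.16.

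**Figure D2:**
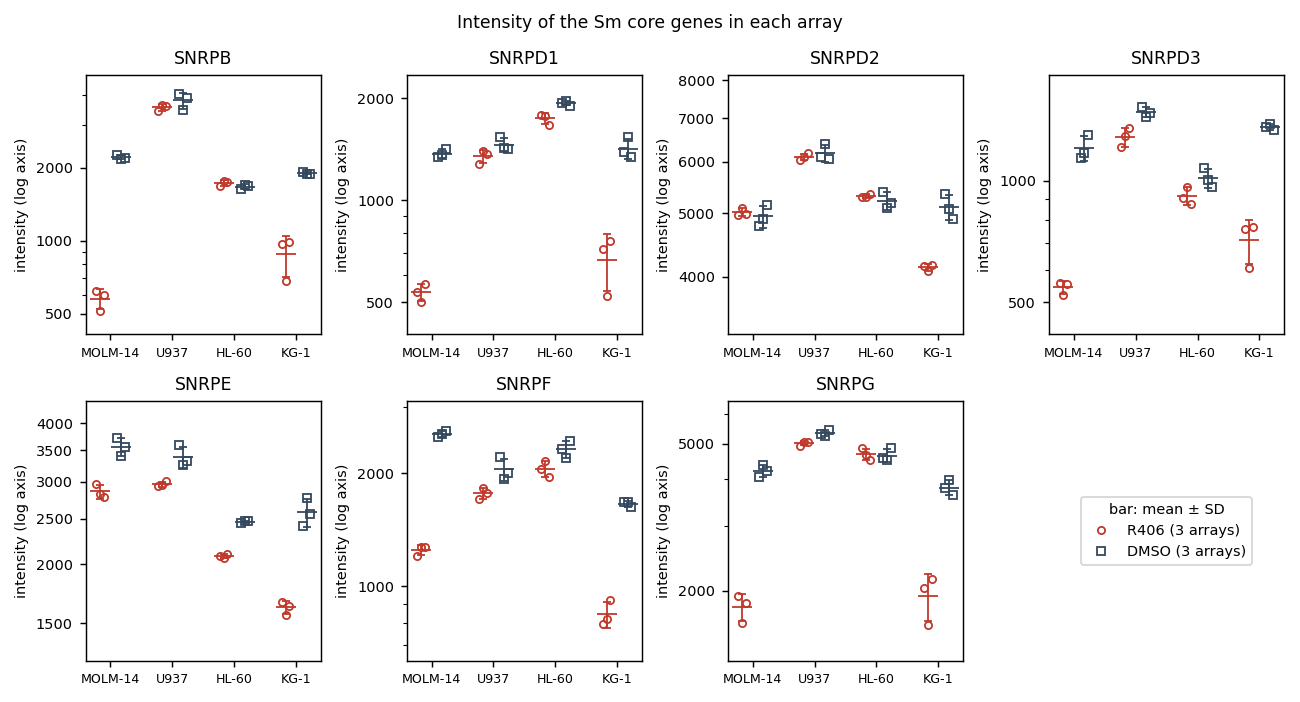
Intensity (log axis) of the 7 Sm ring genes in the 4 lines, with 3 R406 arrays as circles, 3 DMSO arrays as squares and bars for the mean ± SD. R406 circles lie below the DMSO squares in MOLM-14 and KG-1 for every gene but SNRPD2 in MOLM-14, where 4975 to 5104 with R406 overlapped 4786 to 5159 with DMSO.

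SNRPA and SNRPC, for proteins specific to the U1 snRNP, and SNRPA1 and SNRPB2, for proteins specific to the U2 snRNP, fell in both KG-1 and MOLM-14. SNRPA1, the U2-A′ protein, read 248, 197 and 253 in MOLM-14 R406 cells and 625, 648 and 637 in MOLM-14 DMSO cells (-1.46 ± 0.12, adjusted p = 3.09e-10), and 361, 249.7 and 379 in KG-1 R406 cells against 614, 725 and 629 in KG-1 DMSO cells (-1.01 ± 0.12). SNRPA, the U1-A protein, read 589, 592 and 619 in MOLM-14 R406 cells and 960.0, 926 and 1039 in MOLM-14 DMSO cells (-0.70 ± 0.07, adjusted p = 1.05e-08), with -0.31 ± 0.07 in KG-1. The R406 arrays of both genes lay below the DMSO arrays in both lines. SNRPC, the U1-C protein, fell by 1.27 in MOLM-14 and by 0.89 in KG-1, and SNRPB2, the U2-B″ protein, by 0.33 and by 0.39. SNRPN, the SmN protein of brain and heart, was the only gene of the 62 whose group means all lay below the array medians, at 13.1 or less, and it was not called in any line.

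The U2 subunits of the SF3A and SF3B complexes moved in both directions. In MOLM-14, SF3A3, SF3B2, SF3B3, SF3B4 and SF3B5 fell while SF3A1, SF3A2 and SF3B1 rose. KG-1 had the same calls except for SF3B2, which was not called there (-0.16 ± 0.068, adjusted p = 0.0646). SF3B3, a scaffold subunit of SF3B, read 105, 101 and 101 in MOLM-14 R406 cells and 407, 413 and 444 in MOLM-14 DMSO cells (-2.03 ± 0.084, adjusted p = 3.02e-15). In KG-1 R406 cells it read 263, 213 and 289.9, and in KG-1 DMSO cells 510.1, 454 and 476 (-0.92 ± 0.084, adjusted p = 4.43e-09). The probe set used can bind related transcripts, and with the dim probe set specific to SF3B3 the MOLM-14 effect was 0.36. The groups of the brighter one were apart in both lines, whereas U937 (-0.07 ± 0.084) and HL-60 (0.089 ± 0.084) arrays overlapped. SF3B5, a small SF3B subunit, was the other gene called lower in all 4 lines, by 0.40 in MOLM-14, 0.23 in U937, 0.28 in HL-60 and 0.86 in KG-1. It has a single probe set, which can also bind related transcripts, so no specific probe set could be compared. Its intensities in KG-1 were 784, 710.2 and 835 with R406 and 1364, 1422 and 1421 with DMSO (adjusted p = 1.13e-10), and in HL-60 1173, 1151 and 1118 with R406 and 1366, 1435 and 1380.5 with DMSO (adjusted p = 0.0028). No R406 array of SF3B5 reached a DMSO array in any line. SF3A3 fell in 3 lines, by 0.78 in MOLM-14, 0.23 in U937 and 0.39 in KG-1, and SF3B4, given with SF3B2 to complete the complex, by 0.36 in MOLM-14 and 0.50 in KG-1. In U937 the call of SF3A3 was lost without any 1 of the 6 arrays of that line (-0.25 to -0.21), and that of SF3B5 without DMSO replicate 2 or R406 replicate 1 (-0.20 at the weakest).

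SF3B1, which contacts the branch point, read 2680.3, 2863 and 2756 in MOLM-14 R406 cells and 2169, 1973 and 2189.7 in MOLM-14 DMSO cells (0.39 ± 0.066, adjusted p = 2.00e-05). In KG-1 it read 2959.7, 3172 and 2766 with R406 and 2315, 2232 and 2285 with DMSO (0.38 ± 0.066, adjusted p = 4.14e-05). The R406 arrays lay above the DMSO arrays in both lines. U937 and HL-60 effects were 0.09 ± 0.066 and 0.15 ± 0.066 and were not called. All 4 probe sets of SF3B1 had effects above 0 in MOLM-14 and KG-1. SF3A2 read 293, 261 and 242 in MOLM-14 R406 cells and 185, 162 and 157 in MOLM-14 DMSO cells (0.66 ± 0.087, adjusted p = 7.28e-07), with no overlap, and rose by 0.31 ± 0.087 in KG-1. SF3A1 rose by 0.17 ± 0.062 in MOLM-14 (adjusted p = 0.0254) and by 0.18 ± 0.062 in KG-1 (adjusted p = 0.0214). Its call was lost when only probe sets specific to 1 gene were used, at -0.055 and -0.0080 on the log2 scale, and without any of 3 arrays in each line, at 0.14 in MOLM-14 and 0.12 in KG-1 at the weakest.

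Among the SR protein genes, R406 lowered 9 of 11 in MOLM-14 with a median of -0.82, and limma called none higher, at an unadjusted p under 0.05 either. In KG-1, 7 fell and 3 rose, with a median of -0.33. No SRSF gene was called in U937, where an unadjusted p under 0.05 in limma gave none lower and 1 higher, and in HL-60 SRSF8 fell while SRSF4 rose. Of all genes, 25% were called lower and 31.1% higher in MOLM-14, and 20.9% and 23.5% in KG-1. In U937 these shares were 5.43% and 6.1%, and in HL-60 7.98% and 7.2%. SRSF7 read 539.7, 578 and 507 in MOLM-14 R406 cells and 1999, 1978 and 2165 in MOLM-14 DMSO cells (-1.92 ± 0.06, adjusted p = 2.81e-17), and 1035, 1030.0 and 1062 in KG-1 R406 cells against 2089, 2019 and 1965 in KG-1 DMSO cells (-0.96 ± 0.06, adjusted p = 1.06e-11). SRSF2, the splicing factor SC35, read 1244, 1348 and 1133 in MOLM-14 R406 cells and 3865, 3549 and 3572 in MOLM-14 DMSO cells (-1.56 ± 0.063, adjusted p = 1.95e-15). For both genes the R406 arrays were far below the DMSO arrays. In KG-1 SRSF2 read 2712, 2603 and 2721 with R406 and 3802, 3824 and 3928 with DMSO (-0.52 ± 0.063), a smaller fall than in MOLM-14, with -1.04 ± 0.089 for MOLM-14 minus KG-1 (adjusted p = 5.87e-09). SRSF1, the founding SR protein also called ASF/SF2, read 1069, 1128 and 1047 in MOLM-14 R406 cells and 2316, 2331 and 2434 in MOLM-14 DMSO cells (-1.13 ± 0.077, adjusted p = 1.68e-11), and its effect in KG-1 was -0.57 ± 0.077. SRSF3, a small SR protein that also serves mRNA export, fell by 0.82 in MOLM-14 and 0.37 in KG-1. SRSF10 and SRSF9, given to complete the subfamily, fell by 1.25 and 0.89 in MOLM-14 and by 0.33 and 0.41 in KG-1. SRSF8, a close relative of SRSF2, fell in 3 lines, by 0.49 in MOLM-14, 0.28 in HL-60 and 0.23 in KG-1. Its HL-60 call was lost without HL-60 DMSO replicate 2, at -0.24, and its KG-1 call without KG-1 DMSO replicate 2, at -0.18.

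SRSF5 went the other way in KG-1. It read 2816, 3415 and 2863 in KG-1 R406 cells and 1743, 1890.4 and 1912 in KG-1 DMSO cells (0.71 ± 0.078, adjusted p = 8.11e-08), the largest rise among the 62 genes in that line. The KG-1 arrays were well apart, and MOLM-14 arrays overlapped, at 1114, 1157 and 1032 with R406 and 1049, 1029 and 938 with DMSO (0.13 ± 0.078, adjusted p = 0.164). SRSF11 rose in KG-1 (0.35 ± 0.082, adjusted p = 0.00123), and its MOLM-14 arrays overlapped, at 1427, 1255 and 1422 with R406 and 1273, 1373 and 1468 with DMSO. SRSF6 was the only gene called in opposite directions in MOLM-14 and KG-1. It read 857, 784 and 797 in MOLM-14 R406 cells and 963, 958 and 1006 in MOLM-14 DMSO cells (-0.26 ± 0.08, adjusted p = 0.00711). In KG-1 it read 1357, 1828 and 1418 with R406 and 1299.6, 1209 and 1269 with DMSO (0.27 ± 0.08, adjusted p = 0.00708). The second KG-1 R406 array was the highest of these, and without it the KG-1 effect was 0.14 (adjusted p = 0.0694). The MOLM-14 call was lost after repeated quantile normalization, at -0.18. SRSF4 rose in HL-60, at 650.4, 653 and 604 with R406 and 568, 568 and 526 with DMSO (0.20 ± 0.06, adjusted p = 0.027), and fell in MOLM-14 (-0.34 ± 0.06). The HL-60 call was lost on leaving out DMSO replicate 3 or either R406 replicate 1 or 2, with 0.16 the weakest effect.

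**Figure D3:**
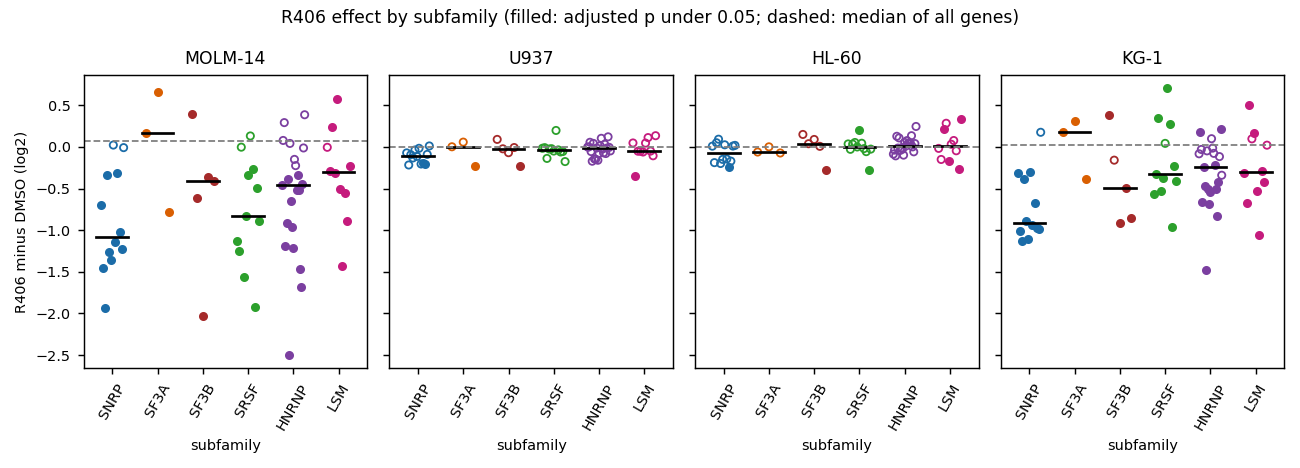
Each point is 1 gene's R406 minus DMSO difference (log2) in a line, by subfamily, filled where the limma adjusted p was under 0.05. Black bars are subfamily medians and the dashed line is the median of all genes. In MOLM-14 the SNRP median is -1.08 and the SRSF median -0.82, and in U937 and HL-60 all points lie between -0.35 and 0.34.

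The hnRNP genes fell in MOLM-14 and KG-1 or were not called, with 2 exceptions in KG-1. R406 lowered 14 of 21 in MOLM-14 with a median of -0.46, and none was called higher there, where limma gave 2 at an unadjusted p under 0.05. In KG-1, 11 fell and 2 rose, with a median of -0.25. None was called in U937 or HL-60, where limma at an unadjusted p under 0.05 gave 3 lower and none higher in U937 and none in HL-60. Of all genes, 25% were called lower and 31.1% higher in MOLM-14, and 20.9% and 23.5% in KG-1. In U937 these shares were 5.43% and 6.1%, and in HL-60 7.98% and 7.2%. With shares this small, the lack of calls among 21 genes is not read as a trait of hnRNP genes. HNRNPAB, an RNA-binding protein of the A/B type, had the lowest effect among the 62 genes in both MOLM-14 and KG-1. It has a single probe set, of a type that can bind related transcripts, so no specific probe set could be compared. It read 517, 447 and 449 in MOLM-14 R406 cells and 2636, 2648 and 2702 in MOLM-14 DMSO cells (-2.50 ± 0.071, adjusted p = 5.78e-18). In KG-1 R406 cells it read 1204, 1046 and 1295, and in KG-1 DMSO cells 3277, 3314 and 3271 (-1.48 ± 0.071, adjusted p = 1.46e-13). Neither line's groups came near each other. In U937 it read 2908, 2883 and 2821 with R406 and 3302, 2996 and 3227 with DMSO (-0.14 ± 0.071, adjusted p = 0.235), and in HL-60 its effect was -0.042 ± 0.071. HNRNPR read 515, 552 and 577 in MOLM-14 R406 cells and 1798, 1803 and 1673 in MOLM-14 DMSO cells (-1.68 ± 0.071, adjusted p = 3.99e-15). In KG-1 it read 1465, 1367 and 1543 with R406 and 1784, 2119 and 1965 with DMSO (-0.42 ± 0.071, adjusted p = 2.77e-05). The arrays were apart in both lines, and the fall was larger in MOLM-14, with -1.26 ± 0.10 for MOLM-14 minus KG-1 (adjusted p = 1.78e-09).

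HNRNPM, whose promoter is printed above, read 691, 684 and 716 in MOLM-14 R406 cells and 1985, 1829 and 1959 in MOLM-14 DMSO cells (-1.46 ± 0.10, adjusted p = 1.09e-11). In KG-1 it read 1127, 748 and 1069 with R406 and 1749, 1696 and 1707 with DMSO (-0.83 ± 0.10, adjusted p = 2.11e-07). HNRNPDL read 984, 1038 and 989 in MOLM-14 R406 cells and 1938, 2008 and 1935 in MOLM-14 DMSO cells (-0.97 ± 0.069), with -0.68 ± 0.069 in KG-1. No R406 array of either gene reached a DMSO array in these lines. With the dim probe set specific to HNRNPM its effects were -0.17 in MOLM-14 and -0.013 in KG-1 and were not called. HNRNPA2B1, which also sorts RNA for transport, read 1917, 1944 and 2028 in MOLM-14 R406 cells and 4221, 4611 and 4568 in MOLM-14 DMSO cells (-1.18 ± 0.12, adjusted p = 6.00e-09). Its KG-1 effect was -0.66 ± 0.12, or -0.45 without KG-1 R406 replicate 2, which at 2255 was the lowest KG-1 R406 array. HNRNPK, a KH-domain protein, fell by 0.34 in MOLM-14 and 0.21 in KG-1, where repeated quantile normalization gave -0.10 and no call. HNRNPL, which binds CA repeats, fell by 0.52 and 0.51 in these lines, but by the mean of its probe sets was at -0.10 and -0.14 and not called. HNRNPU, a nuclear scaffold protein, fell in MOLM-14 by 0.45 and was not called in KG-1 (-0.12 ± 0.062, adjusted p = 0.147). HNRNPA1, a well studied splicing repressor, read 6952, 7164 and 6956 in MOLM-14 R406 cells and 6853, 6705 and 6418 in MOLM-14 DMSO cells (0.077 ± 0.058, adjusted p = 0.276), and rose in KG-1 (0.18 ± 0.058, adjusted p = 0.0152). With only specific probe sets its effects were -0.43 and -0.20 in these lines, and without KG-1 DMSO replicate 1 or R406 replicate 3 the KG-1 call was lost, at 0.15. HNRNPC, which binds uridine tracts, read 3253, 3243 and 3362 in MOLM-14 R406 cells and 2956, 3476 and 3166 in MOLM-14 DMSO cells, with overlap, and was called in no line. Of the genes given to complete the subfamily, HNRNPF, HNRNPA3, HNRNPD and HNRNPA3P1 fell in both lines, and HNRNPA0 and HNRNPH3 fell in MOLM-14. HNRNPUL1 rose in KG-1 (0.21 ± 0.067), and HNRNPH1, HNRNPH2, HNRNPUL2 and HNRNPA1P33 were not called in any line.

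LSM proteins form a nuclear ring of LSM2 to LSM8 on U6 RNA and a cytoplasmic ring of LSM1 to LSM7 that serves mRNA decay. In MOLM-14, 7 of 10 LSM genes fell and 2 rose, with a median of -0.30, and in KG-1 6 fell and 2 rose, also with a median of -0.30. LSM12 fell in U937, LSM2 and LSM7 fell in HL-60, and LSM8 and LSM14A rose in HL-60. Of all genes, 25% were called lower and 31.1% higher in MOLM-14, and 20.9% and 23.5% in KG-1. In U937 5.43% were called lower, and in HL-60 7.98% lower and 7.2% higher. The LSM genes that rose in MOLM-14 and KG-1 were thus no larger a share than among all genes. Of the 6 genes measured of the nuclear ring, 5 fell in MOLM-14 and 4 in KG-1, and LSM2 rose in both. In KG-1 the rise of LSM2 was 0.17 ± 0.054 (adjusted p = 0.0128), and its call was lost after centring on array medians, at 0.10, and in a fit of the KG-1 arrays alone. LSM4 read 435, 372 and 391 in MOLM-14 R406 cells and 1032, 1082 and 1113 in MOLM-14 DMSO cells (-1.43 ± 0.11, adjusted p = 6.34e-11). In KG-1 it read 444, 289.5 and 394 with R406 and 798, 771 and 738 with DMSO (-1.05 ± 0.11, adjusted p = 1.97e-08). The groups of LSM4 were apart in both lines. LSM2 read 1059.5, 1032 and 1019.7 in MOLM-14 R406 cells and 706, 666 and 717 in MOLM-14 DMSO cells (0.58 ± 0.054, adjusted p = 3.64e-09). In HL-60 it read 471, 463 and 484 with R406 and 531, 530.2 and 529.9 with DMSO (-0.17 ± 0.054, adjusted p = 0.0395). R406 arrays of LSM2 were thus above the DMSO arrays in MOLM-14 and below them in HL-60. LSM7 fell in 3 lines, by 0.89 in MOLM-14, 0.27 in HL-60 and 0.42 in KG-1. LSM3 and LSM5, given to complete the ring, fell by 0.51 and 0.56 in MOLM-14 and by 0.53 and 0.29 in KG-1. Without KG-1 R406 replicate 2 the KG-1 effect of LSM5 was -0.22 and not called (adjusted p = 0.0757). LSM8, the subunit particular to the nuclear ring, fell in MOLM-14 (-0.23 ± 0.095, adjusted p = 0.0454) and rose in HL-60, at 444, 395 and 396 with R406 and 329, 305 and 341 with DMSO (0.34 ± 0.095, adjusted p = 0.0166). LSM1, its counterpart in the cytoplasmic ring, fell in KG-1 (-0.31 ± 0.063, adjusted p = 2.36e-04), and its MOLM-14 arrays overlapped (-0.005 ± 0.063). Outside the rings, LSM12 fell in 3 lines, by 0.29 in MOLM-14, 0.35 in U937 and 0.67 in KG-1. LSM14A, a protein of the cytoplasmic P-bodies, rose by 0.23 in MOLM-14, 0.22 in HL-60 and 0.50 in KG-1, and LSM14B fell in MOLM-14 (-0.32 ± 0.10). Leaving out 1 array of the line ended the HL-60 call of LSM2 for any of 6 arrays (-0.18 to -0.15), of LSM14A for 5 (0.20 to 0.25) and of LSM8 for DMSO replicate 2 or R406 replicate 1 (0.28 at the weakest). It also ended the MOLM-14 call of LSM8 for any of 6 arrays (-0.25 to -0.18) and the U937 call of LSM12 for DMSO replicate 1 (-0.30).

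The R406 effect differed between the 4 lines for 55 of the 62 genes in a moderated F test, against 54.8% of all genes. The 7 others were SNRPN, HNRNPA1, HNRNPA1P33, HNRNPC, HNRNPH1, HNRNPH2 and HNRNPUL1. In pairwise tests added after results were seen, the effect was lower in MOLM-14 than in U937 for 39 genes and higher for 4, against 21.4% and 22.4% of all genes. Against HL-60 it was lower in MOLM-14 for 40 and higher for 4, with 21.9% and 23.3% of all genes. Against KG-1 it was lower in MOLM-14 for 32 genes and higher for 8, with 17.9% and 15.6% of all genes. The effect in U937 was higher than in KG-1 for 33 genes and lower for 6 (17.2% and 16.1% of all genes), and in HL-60 it was higher than in KG-1 for 35 and lower for 7 (17.5% and 18.1%). Between U937 and HL-60 limma called none in either direction, with 3.09% of all genes lower and 4.13% higher, and 4 lower and 1 higher at an unadjusted p under 0.05.

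Across the 62 genes the effects in MOLM-14 and KG-1, which share no arrays, correlated at a Pearson coefficient of 0.81 and a Spearman coefficient of 0.81. Across all 12165 genes the coefficients were 0.69 and 0.64. These describe genes that are not independent of each other. The signs were the same for 50 of the 62 genes, or 80.6%, against 70.5% of all genes. Called lower in both lines were 37 genes, and 5 were called higher in both, SF3A1, SF3A2, SF3B1, LSM14A and LSM2. Only 1, SRSF6, was called in opposite directions. Of all 12165 genes, 1953 were called lower in both lines, 2001 higher in both and 309 in opposite directions. Of the 37, the fall was called larger in MOLM-14 for 21 and larger in KG-1 for 3, which were SNRPE, SF3B5 and LSM12. HNRNPAB, SF3B3, SRSF2 and HNRNPR differed most between these lines, with MOLM-14 minus KG-1 at -1.02 ± 0.10, -1.11 ± 0.12, -1.04 ± 0.089 and -1.26 ± 0.10.

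**Figure D4:**
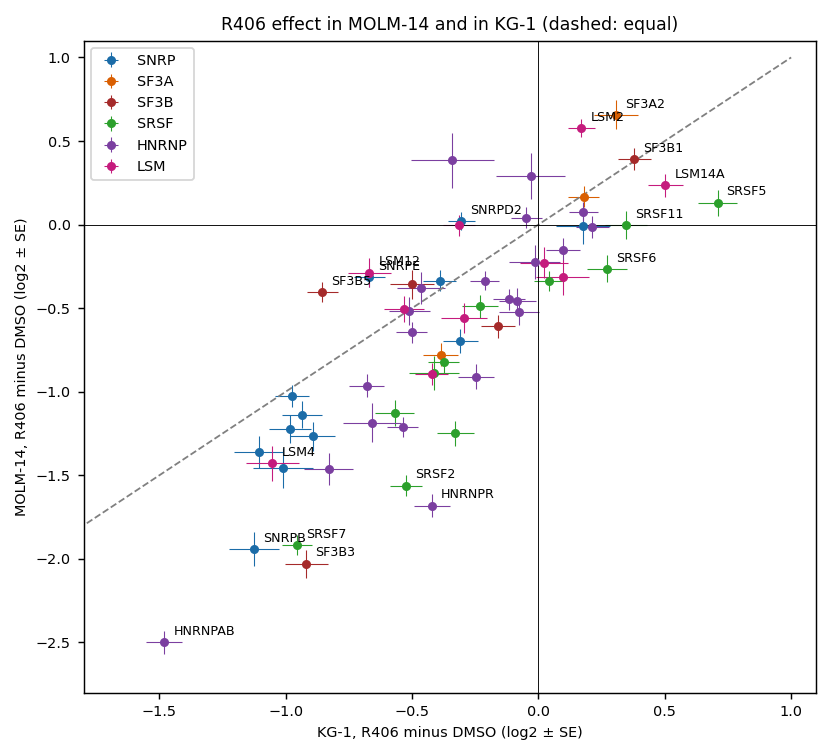
R406 minus DMSO (log2 ± SE) of the 62 genes in MOLM-14 (vertical axis) and in KG-1 (horizontal axis), coloured by subfamily, with a dashed line where both are equal. Most points lie at the lower left and below the dashed line, and HNRNPAB is furthest out at -2.50 in MOLM-14 and -1.48 in KG-1.

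The DMSO groups alone differed between the lines for 51 of the 62 genes in a moderated F test, against 68.1% of all genes. U937 DMSO cells had the highest mean for 21 genes, KG-1 for 16, MOLM-14 for 15 and HL-60 for 10, and HL-60 had the lowest mean for 24. SRSF8 had the widest range, averaging 811 ± 46.96 in HL-60, 573 ± 38.6 in KG-1, 467 ± 9.31 in U937 and 253 ± 13.3 in MOLM-14 DMSO cells (SD, n = 3 each). SNRPB averaged 3785 ± 291 in U937, 2212 ± 43.5 in MOLM-14, 1896 ± 17.2 in KG-1 and 1672 ± 33.8 in HL-60 DMSO cells. SRSF5 averaged 1849 ± 91.9 in KG-1, 1005 ± 59.3 in MOLM-14, 953 ± 65.8 in HL-60 and 894 ± 48.4 in U937 DMSO cells. The line with the highest mean stood clear of the next for each of these genes, and the lower SRSF5 neighbours overlapped. LSM1 averaged 1242 ± 31.5 in KG-1, 666 ± 6.32 in MOLM-14, 589.6 ± 15.7 in HL-60 and 578 ± 14.6 in U937 DMSO cells, with HL-60 and U937 within their spread. SRSF2 averaged 3619.9 to 3852 in the 4 DMSO groups and did not pass the test (adjusted p = 0.429).

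Several probe sets of 1 gene could move in opposite directions. The 62 genes had 133 probe sets, 37 genes having several and 25 having 1, and for 39 genes the brightest probe set was of a type that can bind related transcripts. Over these 133 probe sets, 86 were called lower and 15 higher in MOLM-14, against 23.4% and 28.9% of all 19724 probe sets. In KG-1 the counts were 72 and 22, against 19.2% and 21.5%. In U937, 7 were lower and none higher, against 4.39% and 4.8%, and limma gave 3 higher at an unadjusted p under 0.05. In HL-60, 5 were lower and 5 higher, against 6.26% and 5.97%, or 6 and 3 after each array was centred on its median. Probe sets of the same gene were called in both directions for 5 of 37 genes in MOLM-14 (HNRNPA1, HNRNPD, HNRNPL, SF3B3 and SRSF7), against 6.04% of all genes with several. In KG-1 this held for HNRNPD, HNRNPL and SRSF7, against 2.29% of all such genes. These 3 were singled out after their values were seen. HNRNPD, an AU-rich element binding protein also called AUF1, read 2526, 2483 and 2454 in MOLM-14 R406 cells and 3901, 3913 and 3854 in MOLM-14 DMSO cells with its brightest probe set 221481_x_at (-0.64 ± 0.063). With probe set 213359_at it read 119, 79.3 and 119 in MOLM-14 R406 cells and 30.5, 34.02 and 30.1 in MOLM-14 DMSO cells (1.69 ± 0.14, adjusted p = 5.23e-10). In KG-1 the same probe set read 533, 693 and 613 with R406 and 177, 195 and 203 with DMSO (1.67 ± 0.14, adjusted p = 1.44e-09). R406 arrays were therefore above all DMSO arrays with one probe set and below them with the other. The effect of 213359_at was 0.45 ± 0.14 in HL-60 (adjusted p = 0.0384) and 0.41 ± 0.14 in U937 (adjusted p = 0.0769).

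HNRNPL probe set 221860_at read 361, 359 and 313 in MOLM-14 R406 cells and 193, 194 and 226 in MOLM-14 DMSO cells (0.75 ± 0.10, adjusted p = 5.41e-07), and in KG-1 its effect was 0.57 ± 0.10 (adjusted p = 3.28e-05). The other HNRNPL probe sets, 35201_at and 202072_at, had effects of -0.52 ± 0.083 and -0.52 ± 0.067 in MOLM-14. SRSF7 probe set 213649_at averaged 689 ± 36.2 in MOLM-14 R406 cells and 421 ± 17.5 in MOLM-14 DMSO cells (SD, n = 3 each; 0.71 ± 0.09, adjusted p = 3.97e-07), and in KG-1 it read 672, 829.6 and 844 in R406 cells against 616, 616 and 611 in KG-1 DMSO cells (0.34 ± 0.09, adjusted p = 0.00331). For both genes these R406 arrays lay above the DMSO arrays, while SRSF7 probe set 201129_at gave -1.76 ± 0.088 in MOLM-14 and -0.81 ± 0.088 in KG-1. The second probe set of SF3B3, 200688_at, was dim, at 12.2, 12.3 and 10.4 in MOLM-14 R406 cells and 8.68, 8.69 and 8.99 in MOLM-14 DMSO cells (0.36 ± 0.12). Which transcripts or exons each probe set reads was not analysed here.

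**Figure D5:**
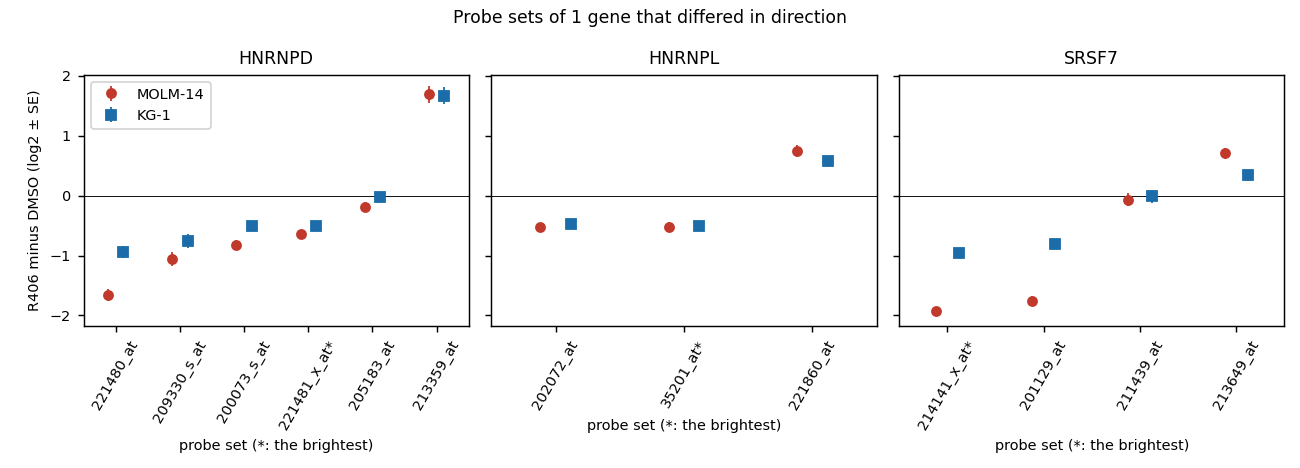
R406 minus DMSO (log2 ± SE) of every probe set of HNRNPD, HNRNPL and SRSF7 in MOLM-14 (circles) and KG-1 (squares), with a star at the brightest probe set. In each gene 1 probe set lies above 0 in both lines while the brightest lies below 0, as with 1.69 against -0.64 for HNRNPD in MOLM-14.

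Other genes of the splicing machinery were listed from textbook knowledge, with earlier results of these data known, and 124 of the 149 listed were analysed. These were called mostly in MOLM-14 and KG-1. In MOLM-14, 65 fell and 33 rose with a median of -0.18, against 25% called lower and 31.1% called higher among all genes. In KG-1, 58 fell and 32 rose with a median of -0.14, against 20.9% and 23.5% of all genes, so that the shares that rose were near those of all genes in both lines. In U937, 6 fell and 4 rose, against 5.43% and 6.1% of all genes, which became 11 and 3 after each array was centred on its median. In HL-60, 5 fell and 6 rose, against 7.98% and 7.2% of all genes, which became 5 and 3 after repeated quantile normalization. Of 11 genes for snRNP assembly, 8 fell in KG-1, 8 in MOLM-14, 4 in HL-60 and 2 in U937, where 20.9%, 25%, 7.98% and 5.43% of all genes were called lower. PRMT5, the methyltransferase that modifies Sm proteins, averaged 156 ± 7.05 in MOLM-14 R406 cells and 660.4 ± 29.5 in MOLM-14 DMSO cells (SD, n = 3 each; -2.08 ± 0.083, limma adjusted p = 1.62e-15). It fell in the other lines too, by 0.51 in U937, 0.47 in HL-60 and 1.46 in KG-1. WDR77, its cofactor, fell by 1.58 in MOLM-14, 0.32 in U937 (limma adjusted p = 0.0395), 0.46 in HL-60 and 1.29 in KG-1. GEMIN4 of the SMN complex fell by 2.51 in MOLM-14 and 1.26 in KG-1. MAGOHB of the exon junction complex fell by 2.41 in MOLM-14 and fell by 1.76 in KG-1.

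The 37 SR-related proteins, kinases and other regulators of the same list had 15 called higher and 14 lower in MOLM-14, against 31.1% and 25% of all genes. In KG-1, 18 were higher and 10 lower, against 23.5% and 20.9% of all genes. CLK1, a kinase that phosphorylates SR proteins, averaged 139.6 ± 19.6 in MOLM-14 R406 cells and 55.7 ± 8.93 in MOLM-14 DMSO cells (1.31 ± 0.17, limma adjusted p = 4.50e-07), and 234 ± 37.8 in KG-1 R406 cells and 88.03 ± 17.9 in KG-1 DMSO cells (1.41 ± 0.17, adjusted p = 2.47e-07). Its effects were 0.30 ± 0.17 in U937 (adjusted p = 0.316) and 0.62 ± 0.17 in HL-60 (adjusted p = 0.0139). CLK4, a kinase of the same family, was called higher in all 4 lines, by 1.40 in MOLM-14, 0.32 in U937, 0.35 in HL-60 and 1.34 in KG-1. Its limma adjusted p was 0.0349 in U937 and 0.0168 in HL-60. The SR protein kinases SRPK1 and SRPK2, added after their values were seen, went in opposite directions. SRPK1 had effects of -1.35 ± 0.066 in MOLM-14 (adjusted p = 4.42e-14), -0.75 ± 0.066 in KG-1 and -0.31 ± 0.066 in U937 (adjusted p = 0.00282). SRPK2 had effects of 0.68 ± 0.086 in MOLM-14 and 0.50 ± 0.086 in KG-1 (adjusted p = 3.21e-05). RBM5, a regulator of alternative splicing, was also called higher in all 4 lines, by 1.25 in MOLM-14, 0.40 in U937, 0.27 in HL-60 and 1.00 in KG-1. Its limma adjusted p was 0.00335 in U937 and 0.0372 in HL-60. With 1 array left out at a time, 2 to 4 genes of the wider list were called higher in U937 and 1 to 9 in HL-60. Whether CLK4 and RBM5 kept their calls in these 2 lines is not given here. SRRM2, a scaffold of nuclear speckles, rose by 1.52 in MOLM-14. In the opposite direction RBM14 fell by 1.80 in MOLM-14 and 1.34 in KG-1.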

How the data were processed

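Gene expression was measured in 24 samples of 4 cell lines with Affymetrix human gene expression arrays. RMA, a method that corrects background, normalizes arrays by quantiles and summarises probes into probe sets, made the deposited intensities, per the submitters' processing notes, and its version is not given in the sources used here. Their size shows that the authors deposited linear intensity values, not logs. The table holds 22277 probe sets, of which 62 controls, 568 with several symbols and 1923 with none were left out. The other 19724 name 12165 genes by the platform annotation, and 12153 of these matched RefSeq. Where a gene had several probe sets, the one with the highest mean over all arrays was used. Probe sets whose names end in _s_at, _x_at, _a_at, _g_at, _f_at, _i_at or _r_at were taken as able to bind related transcripts, as for 5127 genes.

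Groups of 3 were taken from the labels. One limma (3.58.1, R 4.3.3) fit of 8 group means to log2(intensity + 1) gave moderated tests on 16 residual degrees of freedom, with Benjamini-Hochberg adjustment over all genes and calls at an adjusted p under 0.05. The fold change is on that scale, so the pseudocount of 1 understates changes of dim genes. The code was tested on simulated data. The 62 genes, the wider splicing list and the naming rule were chosen with earlier results of these data known, and the pairwise tests between lines were added after results were seen. Named were the 6 highest and 6 lowest called genes of each line whose groups did not overlap, the 3 largest mean effects of each subfamily, the 8 widest ranges of effect, the 5 widest ranges of DMSO means and a list of well known members, and the text adds the others to complete subfamilies. Alternatives were quantile normalization, median centring, a pseudocount of 16, leaving out the dimmest 33.3% of genes, the mean of probe sets, specific probe sets only, a replicate block, fits within a line and leaving out each array. Protein sequences were not analysed here. No scan date or other batch was given in the sources used here. With 3 arrays a group, the number of arrays limits the precision, and there is no read depth to report.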

Additional observations from a re-analysis of the deposited data

Results flagged for a closer look

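The R406 effect differed between the 4 lines in a moderated limma F test (adjusted p under 0.05) for 37 of the 41 named genes. Of all genes, 54.8% did. Some genes were named for passing this test, so the count of 37 is partly fixed by their selection. The size of the difference is given as the highest minus the lowest of the 4 effects on the log2 scale. Among SNRP genes it was 1.99 for SNRPB, 1.27 for SNRPA1, 1.24 for SNRPD1, 1.23 for SNRPG, 0.86 for SNRPF, 0.71 for SNRPA and 0.48 for SNRPE. Among SF3A genes it was 0.71 for SF3A3, 0.66 for SF3A2 and 0.24 for SF3A1, and among SF3B genes 2.12 for SF3B3, 0.62 for SF3B5 and 0.30 for SF3B1. Among SRSF genes it was 1.86 for SRSF7, 1.62 for SRSF2, 1.16 for SRSF1, 0.82 for SRSF3, 0.66 for SRSF5, 0.54 for SRSF6, 0.53 for SRSF4, 0.48 for SRSF11 and 0.43 for SRSF8. Among HNRNP genes it was 2.46 for HNRNPAB, 1.68 for HNRNPR, 1.60 for HNRNPM, 1.31 for HNRNPA2B1, 0.87 for HNRNPDL, 0.57 for HNRNPU, 0.56 for HNRNPL and 0.39 for HNRNPK. Among LSM genes it was 1.54 for LSM4, 0.79 for LSM7, 0.74 for LSM2, 0.57 for LSM8, 0.55 for LSM14A, 0.52 for LSM12 and 0.36 for LSM1. The widest, HNRNPAB, had an adjusted p of 1.24e-14, and the narrowest, SF3A1, one of 0.0475.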

How the results depend on the processing

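Of 164 effects (41 named genes in 4 lines), 82 were called. Of these, 57 kept direction and call under every alternative that could be run for them, and 25 lost the call or changed sign under at least 1. Specific probe sets were not available for all 82. Where they were, 28 called effects stayed the same, 5 were weaker and 4 reversed. The 57 thus include effects that this alternative did not test. Repeated quantile normalization gave 9 genes higher in MOLM-14 and 2 lower in U937, 3 wider-list genes higher in HL-60, 23 probe sets higher in MOLM-14 and 4 lower in U937. Centring on array medians gave 6 genes higher in KG-1, 11 wider-list genes lower in U937 and 3 probe sets higher in HL-60, and it moved the median of all genes by at most -0.067 (KG-1). Fits within a line gave 5 genes higher in KG-1 and 3 wider-list genes higher in HL-60. In the wider list, a pseudocount of 16 gave 12 lower in U937 and 8 lower in HL-60, leaving out the dimmest genes 8 lower in HL-60 and the mean of probe sets 9 lower in HL-60. The cause of these moves was not tested.

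With specific probe sets only, 39 of the 62 genes and 74 of the wider list could be tested, which lowers the counts by construction. Of the 39, 23 fell and 3 rose in MOLM-14, 20 fell and 4 rose in KG-1, 1 fell in HL-60, 32 differed between lines and 33 between DMSO groups. Of the 74, 33 fell in MOLM-14, 29 fell and 17 rose in KG-1, 2 fell and 2 rose in U937, and 2 fell and 2 rose in HL-60. Signs changed for HNRNPA1 (-0.43 in MOLM-14 and -0.20 in KG-1), SF3A1 (-0.055 in MOLM-14, 0.23 in HL-60 and -0.0080 in KG-1) and SF3B3 (0.36 in MOLM-14), and with the mean of probe sets for SRSF11 (0.44 in MOLM-14).

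Same-numbered arrays correlated at -0.15 to 0.13 in their deviations over 84 pairs of arrays, and 2 exceeded 0.1, so the numbers were not taken to pair samples. With the replicate number as a block, 3 genes fell in U937, and every other count stayed within 1.5 times. Leaving out 1 array at a time gave 43 to 46 genes lower and 4 to 6 higher in MOLM-14 and 37 to 40 lower and 7 to 11 higher in KG-1. It gave 1 to 6 lower in U937, and 3 to 6 lower and 0 to 4 higher in HL-60. For the wider list it gave 3 to 10 lower and 2 to 4 higher in U937, and 2 to 7 lower and 1 to 9 higher in HL-60. For probe sets it gave 2 to 12 lower and 0 to 1 higher in U937, and 0 to 6 higher in HL-60. The lowest values came without an array of the line itself, except for the probe sets higher in U937, and the highest lower counts in U937 and HL-60 without KG-1 R406 replicate 2.

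Dim probe sets such as those of SNRPN lie near the bottom of the scale, so changes there are understated, and probe sets that bind related transcripts cannot separate them.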
